A study of Mus musculus with 4 samples.

Results

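The genes described are 40 listed genes of the red-cell lineage, in 3 main roles: erythroid regulators, genes of haem synthesis and iron uptake, and genes of the red-cell membrane. Genes of the red-cell cytosol were kept apart as a small group of their own. A gene was included where a probe set carried its symbol alone in the platform annotation and was called Present, meaning detected above mismatch background, on at least 2 of the 4 arrays. This held for 38 of the 40 genes, among 11656 genes tested in all. They had 71 probe sets, of which 60 passed the detection filter, and each gene was represented by its tested probe set of highest mean signal. Epb41 and Ahsp were not analysed here. All 38 genes are described, 37 of them called Present on all 4 arrays.

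The samples were hepatic mesothelial cells, the sheet that covers the liver, with the submesothelial cells beneath them, taken surgically from C57BL/6 mouse embryos at embryonic day 17.5. Embryos were wild type (p57+/+, both names being used here) or lacked the cyclin-dependent kinase inhibitor p57 (p57-/-, given as Kip2 -/- in the genotype field), encoded by Cdkn1c. There were 2 samples of each genotype, 1 in each of 2 experiments, and each was read on 1 Affymetrix array. The labels do not give the allele, the number of embryos in a sample or what an experiment shared, so the spread behind every p-value is that of these samples alone and may be technical in part.

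At this stage the fetal liver is the main site of red-cell production. Erythropoietin, acting through its receptor, and transcription factors of the GATA, KLF and TAL1 families drive progenitors through erythroblast stages, in which globin, haem and a spectrin-based membrane skeleton are made together before the nucleus is expelled. Haem is built from glycine and succinyl-CoA by a chain of enzymes that starts and ends in the mitochondrion, with iron brought in by the transferrin receptor.

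Upstream sequences are shown for the regulators and membrane genes of lowest p-value that have an entry in RefSeq's start-site table, and for Bpgm, the one gene whose signal was higher in p57-/- in both experiments. Each run is the 120 bases directly before the annotated start, 5′ to 3′ on the gene's strand, in build GRCm38.p6. Capitals mark a GATA motif, the letters GATA with A or T before them and A or G after them, on either strand.
Epor: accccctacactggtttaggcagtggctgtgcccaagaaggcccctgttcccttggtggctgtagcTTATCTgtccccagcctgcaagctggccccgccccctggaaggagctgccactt
Klf1: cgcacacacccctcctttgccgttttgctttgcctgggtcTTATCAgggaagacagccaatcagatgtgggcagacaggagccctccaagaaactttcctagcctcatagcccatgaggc
Rhd: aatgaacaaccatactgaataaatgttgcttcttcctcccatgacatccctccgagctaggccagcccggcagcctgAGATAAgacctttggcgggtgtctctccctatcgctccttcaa
Icam4: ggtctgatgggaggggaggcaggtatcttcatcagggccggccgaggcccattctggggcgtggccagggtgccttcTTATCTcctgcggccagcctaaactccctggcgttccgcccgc
Bpgm: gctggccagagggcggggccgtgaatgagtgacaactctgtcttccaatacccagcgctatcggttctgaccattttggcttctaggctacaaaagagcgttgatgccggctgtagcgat

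The Epor run lies at chr9:21963577-21963696 on the minus strand, and the others on the plus strand, Klf1 at chr8:84901862-84901981, Rhd at chr4:134864416-134864535, Icam4 at chr9:21029312-21029431 and Bpgm at chr6:34476236-34476355. The motif's first base was 54 bases before the start in Epor, 80 in Klf1, and 43 in both Rhd and Icam4. In the Bpgm run these letters were not found. The table held entries for 27 of the 38 genes. A GATA motif lay in the 120 bases before at least 1 start of 12 of these 27 genes (44.4%), against 14.8% of all genes in the table. In the table's whole windows of 300 bases, which run past the start, it was found for 18 of 27 (66.7%), against 33.0%. By role, 8 of 9 membrane genes, 5 of 7 regulators and 5 of 10 haem and iron genes held it in 300 bases. In 120 bases these counts were 5 of 9, 3 of 7 and 4 of 10. The motif CCNCNCCC, searched on both strands as a form of the KLF1 site, lay in the 120-base windows of 14 of 27 genes (51.9%) against 37.3% of all genes. Matches describe letters only, and binding was not measured.

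Across the 4 arrays 48.5% to 50.1% of probe sets were called Present, and the trimmed mean signal was 500.003 on each. The Cdkn1c signal was 10255 and 9866 in wild type and, called Absent on both arrays, 7.79 and 7.28 in p57-/-, which matched the labelled genotypes. Its probe set alone passed the threshold, an adjusted p of 0.05 over all 22800 probe sets tested (limma adjusted p = 1.80e-08). Mesothelial markers were detected, 10 of 10 tested, with Upk3b between 2334 and 3732. Markers of hepatocytes, granulocytes and macrophages were detected too, so the samples held several liver cell types.

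Signals of the red-cell genes lay lower in p57-/- in nearly every case, by a modest amount and mostly through 1 array. Of the 38 genes, 37 had a lower mean log2 signal in p57-/-, and 34 were lower in both experiments, comparing within each experiment. Over all tested genes 26.7% were lower in both experiments and 29.6% were higher in both. In the bulk RNA of these samples, fewer red-cell precursors, less RNA per cell and a different mix of cell types cannot be told apart. The median log2 change, p57-/- minus p57+/+, was -0.40 over the 38 genes and 0.02 over all tested genes. In 26 genes both p57-/- signals lay under both p57+/+ signals, as in 19% of all tested genes.

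None of the 38 genes passed the threshold in limma with adjustment over all probe sets (lowest adjusted p = 0.549). The share of all tested genes that passed was 0.00858%, which is Cdkn1c alone. At an unadjusted p under 0.05, 18 of the 38 were lower and 0 higher, beside 4.07% of all tested genes lower and 4.7% higher. Blocking on the experiment also passed 0 of the 38, and 0.132% of all probe sets.

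The difference was larger in experiment 1 than in experiment 2. Experiment 1 gave a median of -0.57 and experiment 2 of -0.18, and 36 of the 38 genes had the lower log2 change in experiment 1. In 35 genes the p57-/- replicate 1 signal was the lowest of the 4, as it was in 27.8% of all tested genes. The p57-/- replicates differed from each other by a median of -0.48 (replicate 1 minus replicate 2), more than the p57+/+ replicates, at -0.08. Without p57-/- replicate 1 the median was -0.15 and 33 of 38 genes stayed lower. Without p57-/- replicate 2 it was -0.65, and 13 of the 38 passed the threshold, where 0.969% of all probe sets passed. Whether the genotype difference itself differed between the experiments was not tested, since each holds 1 array of each genotype.

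**Figure D1:**
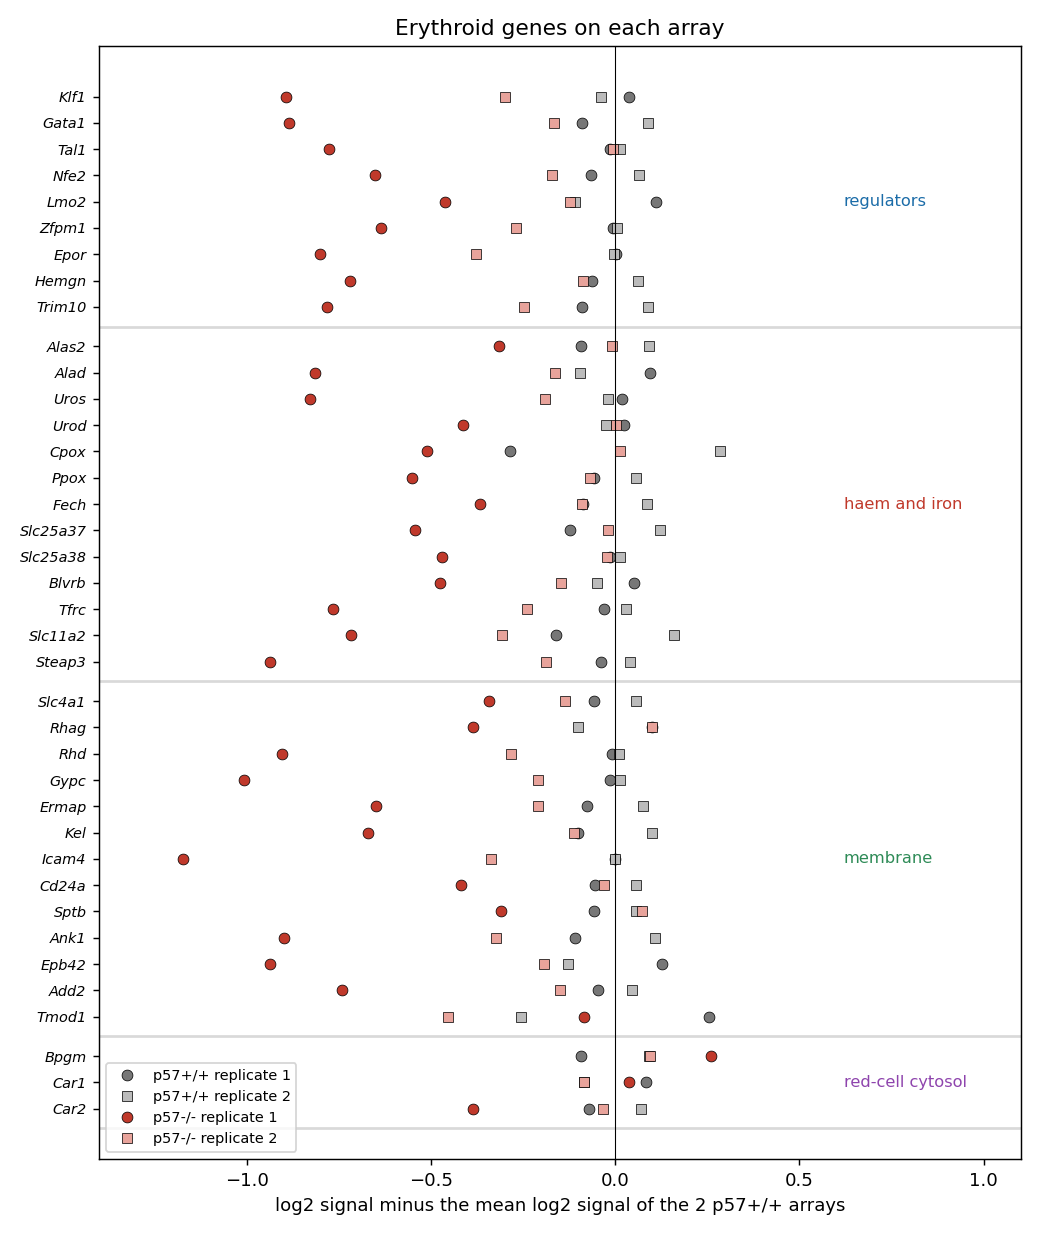
Log2 signal of each of the 38 genes on the 4 arrays, minus the mean log2 signal of the 2 p57+/+ arrays, in groups by role. Each symbol is 1 array; p57-/- replicate 1 is the lowest array for 35 genes, and p57-/- replicate 2 lies nearer to the p57+/+ arrays.

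**Figure D2:**
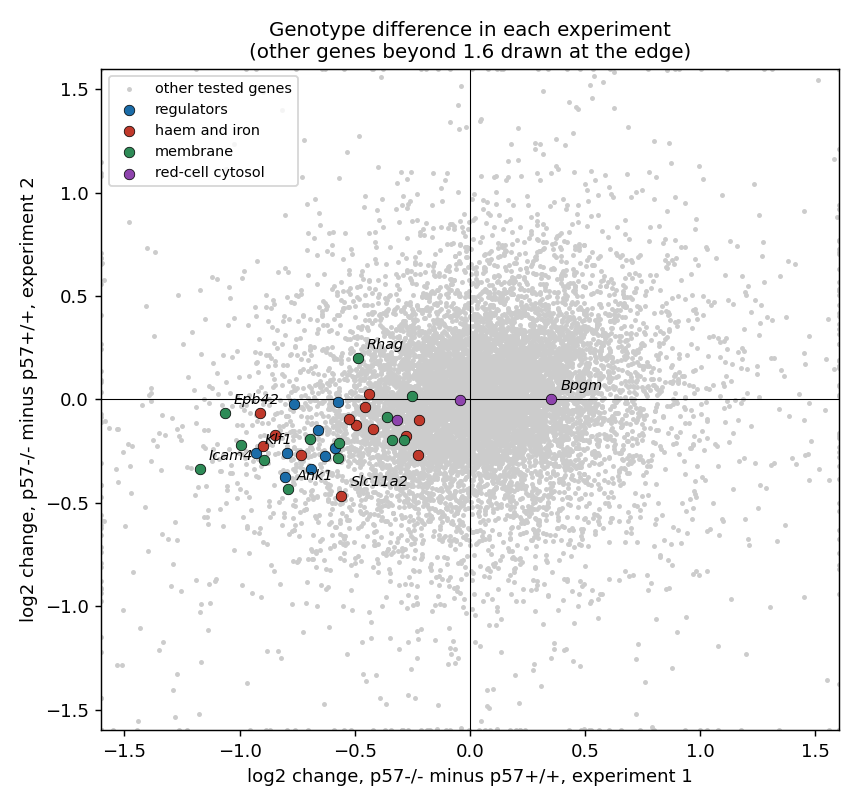
Log2 change in experiment 1 (horizontal) against experiment 2 (vertical), 1 point a gene, with the 38 red-cell genes in colour by role and other tested genes in grey. The lower left quadrant holds 34 of the 38 genes, and Bpgm lies to the right of 0.

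Among the 9 regulators, all had lower signals in p57-/- in both experiments, 6 at an unadjusted p under 0.05, and in 8 the genotypes did not overlap. Their median log2 change was -0.45, at -0.69 in experiment 1 and -0.26 in experiment 2. It was -0.17 without p57-/- replicate 1 and -0.78 without p57-/- replicate 2. None passed the threshold with all 4 arrays. Over all tested genes, 26.7% were lower in both experiments, 4.07% were lower at an unadjusted limma p under 0.05, and 19% were lower without overlap.

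Klf1 encodes a zinc finger factor that activates globin and many other red-cell genes. Its signal was 8895 and 8441 in wild type, and 4670 and 7045 in p57-/-, replicates 1 and 2 in each case. Both p57-/- arrays were low, the first by 47.5% and the second by 16.5% against the p57+/+ array of the same experiment. The log2 change was -0.60 (SE 0.18, limma adjusted p = 0.549). Epor, the erythropoietin receptor gene, gave 999 and 996 in p57+/+, which nearly coincided, and 572 and 768 in p57-/-. Its log2 change was -0.59 (SE 0.18, limma adjusted p = 0.549), with no overlap between genotypes.

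Trim10, a RING finger gene of terminal erythroid cells, gave 6078 and 6881 in wild type and 3765 and 5450 in p57-/-, for a log2 change of -0.51 (SE 0.17). Zfpm1 encodes FOG1, the cofactor through which GATA1 acts at many of its targets. It gave 1688 and 1698 in wild type and 1091 and 1404 in p57-/-, for a log2 change of -0.45 (SE 0.16). Hemgn, a nuclear protein gene downstream of GATA1, gave 22748 and 24780 in wild type and 14419 and 22362 in p57-/-. Here the second p57-/- array lay just under the lower p57+/+ array, and the log2 change was -0.40 (SE 0.18).

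Gata1 itself, the master regulator of the lineage, was at -0.53 (SE 0.21), and Nfe2, a bZIP subunit that binds globin control regions, at -0.41 (SE 0.16). Tal1, a basic helix-loop-helix partner of GATA1, and Lmo2, the LIM protein that bridges them, were lower almost wholly in experiment 1. Tal1 was at -0.76 in experiment 1 and -0.02 in experiment 2, with overlapping genotypes, and Lmo2 at -0.57 and -0.01. Both act also in stem cells and endothelium, and Gata1, Nfe2 and Zfpm1 also in megakaryocytes.

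Markers of those cells differed in another pattern. The 7 tested of 10 megakaryocyte markers had a median log2 change of 0.55 in experiment 1 and -0.19 in experiment 2, and Pf4, the platelet factor gene, was at 0.84 and -0.08. Their summed signal was 11049 and 12434 in wild type and 17823 and 11197 in p57-/-. Endothelial markers, 9 tested of 10, had medians of 0.53 and -0.15, with sums of 8629 and 9769 in wild type and 11300 and 8580 in p57-/-. Both lists were highest where the red-cell genes were lowest, in p57-/- replicate 1, and their part in the result was not tested.

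Haem and iron genes were lower in p57-/- in all 13 cases, 12 of them in both experiments, 5 at an unadjusted p under 0.05 and 9 without overlap between genotypes. Their median log2 change was -0.31, at -0.49 in experiment 1 and -0.14 in experiment 2. It was -0.09 without p57-/- replicate 1 and -0.54 without p57-/- replicate 2. None passed the threshold with all 4 arrays (lowest limma adjusted p = 0.549). The shares of all tested genes were 26.7% lower in both experiments, 4.07% lower at an unadjusted limma p under 0.05, and 19% lower without overlap.

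**Figure D3:**
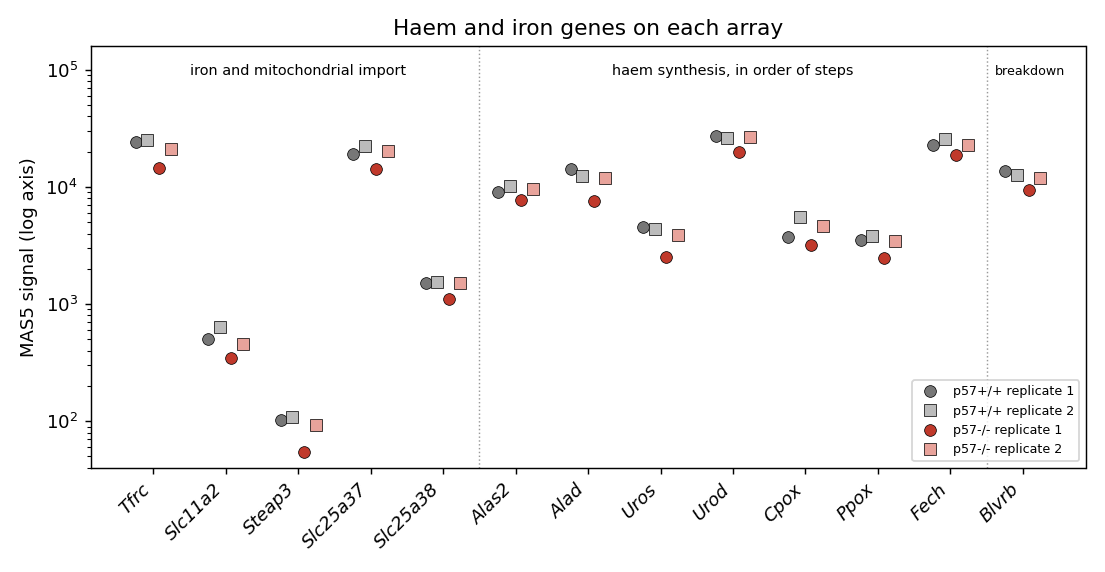
MAS5 signal (log axis) of the 13 haem and iron genes on each of the 4 arrays, with the synthesis enzymes in the order of their steps. The p57-/- replicate 1 array is the lowest for every gene shown, and it lies farthest below the wild-type arrays for Alad, Uros, Tfrc and Steap3.

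Along the synthesis chain the log2 changes of the brightest probe sets ran from -0.51 to -0.16, and differences between genes were not tested. Alas2, the erythroid enzyme of the committed step, gave 9045 and 10287 in wild type and 7750 and 9584 in p57-/-, with overlap and a log2 change of -0.16 (SE 0.13). Alad, which joins 2 molecules of aminolaevulinate, gave 14165 and 12419 in wild type and 7538 and 11846 in p57-/-, for a log2 change of -0.49 (SE 0.19). Uros, which closes the tetrapyrrole ring, gave 4541 and 4417 in wild type and 2525 and 3924 in p57-/-, for a log2 change of -0.51 (SE 0.19). Alad and Uros did not overlap between genotypes, and their dimmer probe sets gave -0.71 (SE 0.22) and -0.95 (SE 0.31).

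Urod, the next decarboxylase, gave 27112 and 26203 in wild type and 20027 and 26679 in p57-/-. The second p57-/- array thus lay between the p57+/+ arrays, and the log2 change was -0.21 (SE 0.14), 0.00 without p57-/- replicate 1. Cpox was at -0.25 (SE 0.21), Ppox at -0.31 (SE 0.16) and Fech, the ferrochelatase that inserts iron, at -0.23 (SE 0.13). A dimmer Ppox probe set gave -0.80 (SE 0.26), and the mean over both tested Ppox probe sets was -0.55. Cpox had probe sets that ranked the p57+/+ arrays oppositely, at 3769 and 5588 with one and 5805 and 3741 with another, so its values carry wide error. Its log2 change was 0.01 without p57-/- replicate 1 and 0.04 without p57+/+ replicate 2.

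Among the iron genes, Tfrc encodes the transferrin receptor, through which erythroblasts take up iron. Its signal was 24151 and 25154 in wild type and 14503 and 20901 in p57-/-, lower by 39.9% in experiment 1 and 16.9% in experiment 2, with a log2 change of -0.50 (SE 0.16, limma adjusted p = 0.549). The array also carries 3 control probe sets along the Tfrc transcript, which were not tested. The one nearest the 3' end gave 703 and 659 in wild type and 346 and 472 in p57-/-, and the one nearest the 5' end 179 and 159 against 83.4 and 109. The middle one gave 147 and 114 against 97.4 and 94.0. The genotypes did not overlap at these positions, but the dimmest tested Tfrc probe set overlapped, at 143 and 124 in wild type and 84.4 and 159 in p57-/-, and was higher by 0.37 in experiment 2. The remaining tested probe set had a log2 change of -0.35 (SE 0.17), as had the mean over all 3 (-0.35). The ratio of 3' to 5' signal, a measure of RNA integrity, was 3.92 and 4.15 in wild type and 4.14 and 4.35 in p57-/-.

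Slc11a2, the divalent metal transporter gene, was lower by 32.1% in experiment 1 and 27.5% in experiment 2. It gave 508 and 634 in wild type and 345 and 459 in p57-/-, for a log2 change of -0.51 (SE 0.21). Its dimmer tested probe sets gave -0.39 and -0.42 in experiments 1 and 2 with one and -0.29 and 0.10 with another, and the mean over its probe sets was -0.34. Steap3, the reductase gene of the transferrin cycle, was dim, at 102 and 108 in wild type and 54.8 (Absent) and 92.1 in p57-/-, for a log2 change of -0.56 (SE 0.38). The mitochondrial carriers Slc25a37 (mitoferrin 1) and Slc25a38 (a glycine carrier) were at -0.28 (SE 0.17) and -0.25 (SE 0.17). Blvrb, a biliverdin and flavin reductase gene, was at -0.31 (SE 0.13).

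Membrane genes were lower in p57-/- in all 13 tested cases, 11 of them in both experiments, 7 at an unadjusted p under 0.05 and 9 without overlap between genotypes. Their median log2 change was -0.43, at -0.57 in experiment 1 and -0.20 in experiment 2. It was -0.19 without p57-/- replicate 1 and -0.67 without p57-/- replicate 2. The threshold was passed by none with all 4 arrays. Beside these counts, 26.7% of all tested genes were lower in both experiments, 4.07% at an unadjusted limma p under 0.05, and 19% without overlap.

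Icam4 encodes the Landsteiner-Wiener adhesion protein, a ligand for integrins on macrophages of erythroblastic islands, and had the most negative log2 change of the 38 genes. Its signal was 3792 and 3787 in p57+/+, nearly identical, and 1683 and 2999 in p57-/-. It was lower by 55.6% in experiment 1 and 20.8% in experiment 2, with a log2 change of -0.75 (SE 0.23, limma adjusted p = 0.549). Rhd, the Rh blood group gene, gave 10269 and 10404 in wild type and 5523 and 8503 in p57-/-, for a log2 change of -0.59 (SE 0.18). Gypc, a glycophorin gene whose product links the membrane to the skeleton, gave 3007 and 3067 in wild type and 1511 and 2628 in p57-/-, for a log2 change of -0.61 (SE 0.22). In all 3 genes the p57+/+ arrays lay close together, and the p57-/- arrays lay apart from them and from each other.

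Ank1 encodes ankyrin, which ties the anion exchanger to spectrin. It gave 3525 and 4091 in wild type and 2037 and 3032 in p57-/-, for a log2 change of -0.61 (SE 0.18, limma adjusted p = 0.549), and was lower by 42.2% and 25.9% in experiments 1 and 2. A dimmer Ank1 probe set gave 832 and 765 against 551 and 581, so there the p57-/- arrays nearly coincided. On their brightest probe sets, a pair of other skeleton genes were lower mainly in experiment 1. Epb42 (protein 4.2) was at -1.06 in experiment 1 and -0.06 in experiment 2, and Add2 (beta-adducin) at -0.70 and -0.19. The dimmer Epb42 probe set gave -0.62 and -0.44. The 3 dimmer tested probe sets of Add2 differed among themselves, at -0.51 and -0.78, at -0.11 and -0.21, and at -0.75 and 0.66 in experiments 1 and 2, so the last changed side.

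The other membrane genes ranged from small to moderate differences. Cd24a, a glycoprotein gene also of lymphoid and epithelial cells, gave 41681 and 45020 in wild type and 32450 and 42458 in p57-/-, with a log2 change of -0.22 (SE 0.14). Ermap gave 11120 and 12365 in wild type and 7485 and 10152 in p57-/-, for a log2 change of -0.43 (SE 0.15). Slc4a1 (band 3, the anion exchanger) was at -0.24 (SE 0.11) and Kel at -0.39 (SE 0.18). Tmod1 (tropomodulin) was at -0.27 (SE 0.20), and it is the exception among membrane genes in that p57-/- replicate 2 had its lowest signal.

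Rhag, which encodes the Rh-associated glycoprotein that carries Rhd to the surface, differed from Rhd. It was at -0.49 in experiment 1 and 0.20 in experiment 2, and at 0.10 without p57-/- replicate 1. Sptb (beta-spectrin) was at -0.12 (SE 0.19), and at 0.07 without p57-/- replicate 1.

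The red-cell cytosol group was mixed, with 2 of its 3 tested genes lower in both experiments, Car1 only marginally, and Bpgm higher. Bpgm, which makes the 2,3-bisphosphoglycerate that lowers the oxygen affinity of haemoglobin, gave 4469 and 5085 in wild type and 5707 and 5086 in p57-/-. The p57-/- arrays were the higher in both experiments, by 0.35 in experiment 1 and by 0.00, barely above level, in experiment 2 on the log2 scale, with a log2 change of 0.18 (SE 0.13, limma adjusted p = 0.756). Its other probe sets gave 0.29 (SE 0.14) and 0.31 (SE 0.13). Car1, a carbonic anhydrase gene, gave 1213 and 1081 in wild type and 1176 and 1080 in p57-/-, so that the genotypes overlapped and the log2 change was -0.02 (SE 0.15). It was 0.06 without p57+/+ replicate 1 and 0.04 without p57-/- replicate 2. Car2, another carbonic anhydrase, gave 38446 and 42336 in wild type and 30864 and 39453 in p57-/-, for a log2 change of -0.21 (SE 0.13) with overlap.

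Different probe sets of a gene mostly gave the same direction. Of the 60 tested probe sets of the 38 genes, 57 were lower and 3, all of Bpgm, were higher. All 14 genes with several tested probe sets had them on one side of 0. In 46 of the 60 the signal was lower in both experiments. Across the 38 genes, which share the 4 arrays, the mean log2 signal and the log2 change had a Pearson correlation of 0.22. The 38 genes lie on 17 chromosomes in the reference.

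Gata1 and Alas2 lie on the X chromosome, and the samples differed in sex-linked transcripts. Xist, expressed from the inactive X, gave 12199 and 86.7 in wild type and 7889 and 6412 in p57-/-. The Y-linked Eif2s3y was Absent in p57+/+ replicate 1, at 2.56, and gave 1734 in p57+/+ replicate 2 and 966 and 904 in p57-/-. Xist was called Present on all 4 arrays, but its 86.7 in p57+/+ replicate 2 lay near that array's median signal of 83.0. The Y-linked Kdm5d and Uty were also Absent in p57+/+ replicate 1, at 24.4 and 14.4, and Present on the other arrays. Thus p57+/+ replicate 1 had high Xist without Y-linked signal, and p57+/+ replicate 2 had Y-linked signal with Xist near the median. Both p57-/- samples had high Xist and Y-linked signal together. Gata1 was at 2268 and 2571 in p57+/+ and at 1308 and 2151 in p57-/-, without overlap, and the part of sex in any difference was not tested.

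Other genes of the same pathways, listed apart from the 38, did not as a whole list show the lower signals as a rule. This list was not limited to red-cell genes. It also held genes of early progenitors, such as Myb and Kit, and the housekeeping enzyme Alas1. These were higher in both experiments, while Lyl1 and Runx1, also of early progenitors, were at -0.16 (SE 0.15) and -0.34 (SE 0.38). Some red-cell genes of the list lay near 0, with Gfi1b at -0.03 (SE 0.15) and Tfr2 at -0.06 (SE 0.12). Apart from Myb, the genes named here were chosen after their values were seen. Whether the red-cell genes within the list were lower as a set, as the 38 were, was not tested. Of 50 listed, 45 were tested. Both experiments gave a lower signal for 14 of these and a higher one for 11, 31.1% and 24.4%, beside 26.7% and 29.6% of all tested genes. Their median log2 change was -0.06, and none passed the threshold (lowest limma adjusted p = 0.549). At an unadjusted p under 0.05, 4 were lower and 1 higher.

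Among 16 other regulators, 4 were lower and 4 higher in both experiments, with a median of -0.05. Sox6, a factor of definitive erythroid maturation, gave 1867 and 2012 in wild type and 1157 and 1480 in p57-/-, for a log2 change of -0.57 (SE 0.16). Myb, a factor of early progenitors, lay the other way, at 3011 and 3213 in wild type and 3646 and 4120 in p57-/-, for a log2 change of 0.32 (SE 0.13). Kit, the stem cell factor receptor of early progenitors, was at 0.27 (SE 0.16) and higher in both experiments, while Gata2, which precedes Gata1 in the lineage, was at -0.06 (SE 0.19). Kit and Gata2 were chosen after their values were seen.

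Of 16 other haem and iron genes, 5 were lower and 5 higher in both experiments, with a median of 0.00. Abcb10, a mitochondrial transporter gene that stabilises mitoferrin 1, gave 5832 and 6354 in wild type and 3955 and 5155 in p57-/-, for a log2 change of -0.43 (SE 0.15). Fam210b, a mitochondrial gene of erythroid haem synthesis, was at -0.37 (SE 0.15). The housekeeping enzyme Alas1, chosen after its value was seen, was at 0.19 (SE 0.14). Of 13 other membrane genes, 5 were lower and 2 higher in both experiments, with a median of -0.19. Dmtn (dematin) was at -0.59 (SE 0.24) and Mpp1 at -0.25 (SE 0.12), both lower in both experiments.

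Only 4 of 9 listed globin symbols had a tested probe set, and they gave no common direction. The embryonic gene Hbb-bh1 was at 369 and 489 in wild type and 127 and 201 in p57-/-, for a log2 change of -1.41 (SE 0.27, limma adjusted p = 0.519). Its probe set can cross-hybridise with related globins by its type, and the 489 was called Absent. Hba-x was at -0.07 (SE 0.24).

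Among markers of other blood cells, the B-lymphoid list had a median below 0 in both experiments, as the red-cell genes had, and the granulocyte list one above 0 in both. The 5 tested of 8 B-lymphoid markers had a median log2 change of -0.78 in experiment 1 and -0.02 in experiment 2, close in pattern to Tal1. Their summed signal was 4130 and 4136 in wild type and 2459 and 4162 in p57-/-, low on p57-/- replicate 1 alone. Granulocyte markers, all 10 tested, were higher in both experiments in 8 cases, beside 29.6% of all tested genes. Of these markers, Camp was higher by only 0.00 in experiment 1 and Ltf by only 0.00 in experiment 2. The granulocyte sums were 199061 and 201352 in wild type and 214848 and 222316 in p57-/-. Macrophage markers, all 10 tested, had medians of 0.29 and -0.19 and sums of 30607 and 31198 against 35994 and 27133. The summed signal of the 38 red-cell genes was 369007 and 389191 in wild type and 263179 and 353228 in p57-/-. The part of other blood cells in the result was not tested.

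Among structural cell types, the summed mesenchymal signal was higher on both p57-/- arrays than on either p57+/+ array, while on p57-/- replicate 1 the hepatocyte and mesothelial sums lay between the p57+/+ arrays. Mesenchymal markers, 9 tested of 10, had medians of 0.35 in experiment 1 and 0.05 in experiment 2, with sums of 75479 and 82506 in wild type and 97096 and 87437 in p57-/-. Hepatocyte markers, 9 tested of 10, had medians of 0.19 and -0.17, and mesothelial markers, all 10 tested, 0.21 and 0.02. Mesothelial sums were 11207 and 14030 against 13125 and 15678, and hepatocyte sums 389667 and 483374 against 445611 and 434647. The part of these lists in the lower red-cell signals was not tested.

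**Figure D4:**
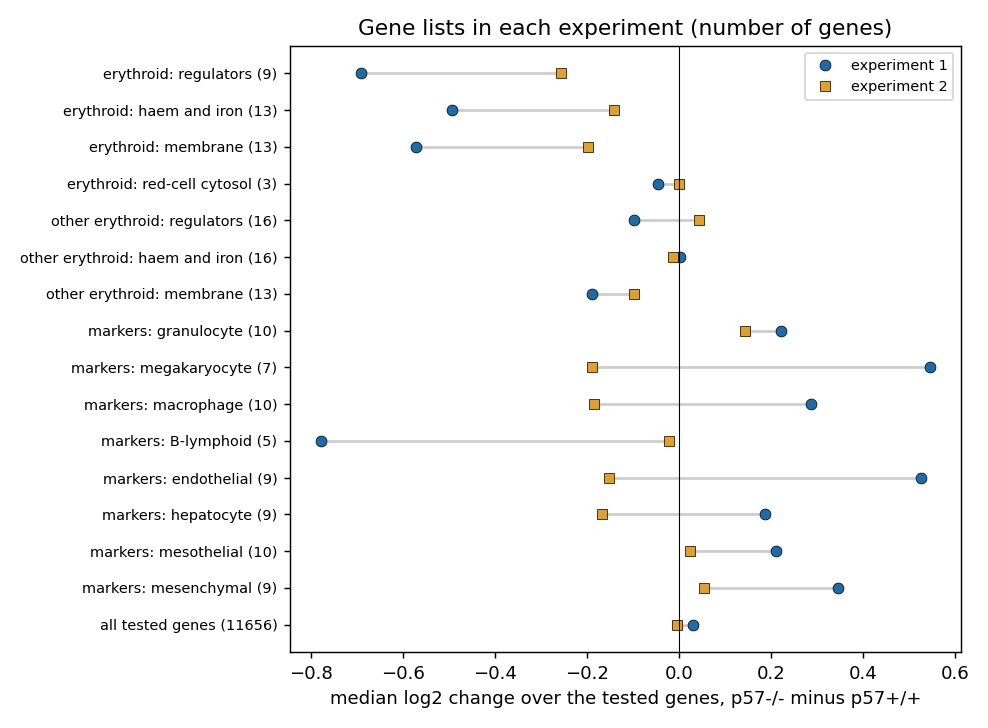
Median log2 change, p57-/- minus p57+/+, over the tested genes of each list (number in brackets) in experiment 1 (circles) and experiment 2 (squares). The 3 main red-cell lists and, less far, the other membrane genes lie below 0 in both experiments, and the B-lymphoid markers mainly in experiment 1. The cytosol group lies near 0, and the other regulators and other haem and iron genes change side near 0. The megakaryocyte, endothelial, macrophage and hepatocyte markers change side too.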

How the data were processed

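The authors deposited, per the file headers, a MAS5 signal intensity on a linear scale and a detection p-value with a Present, Marginal or Absent call for each of 45101 probe sets on each array. MAS5 is also named in the submitters' processing notes, and its version is not given in the sources used here. A deposited value table held the same intensities. Signals were log2 transformed with no further normalization. The 64 control probe sets and those Present on fewer than 2 arrays were left out, which left 22800. The genotype test was limma 3.58.1 under R 4.3.3 (lmFit, eBayes with a variance trend, no block, two-sided), with Benjamini-Hochberg adjustment over all probe sets tested. It was tried on simulated data with noise independent between genes, which does not model a shift of many genes on 1 array. The platform annotation gave 1 symbol to 34945 probe sets, several to 932 and none to 9160. Array number limits the precision.

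Signals on all arrays were given, by rule, for the 4 genes of lowest p-value and the gene of highest signal in each role, and for any gene higher in both experiments. Outside the rule, they were also given for Gata1, Alas2, Steap3 and Gypc. From each list of other pathway genes the 2 of lowest p were named, and a few others were chosen after their values were seen. Members, lists and rules were chosen with earlier results of these data known. Alternatives were the experiment number as a block, no variance trend, quantile normalization, a pseudocount of 16, no filter, Present on all 4 arrays, the mean of a gene's probe sets, and leaving out each array.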

Additional observations from a re-analysis of the deposited data

How the results depend on the processing

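The 38 genes gave 0 calls at an adjusted p of 0.05 under every alternative except leaving out p57-/- replicate 2, so leaving out 1 array gave 0 to 13. Over all probe sets, 1 passed, against 30 with the replicate block, 0 with Present on all 4 arrays, a filter that leaves out Cdkn1c, and 5 to 221 without 1 array. Under the block the lowest adjusted p among the 38 was 0.0841, for Icam4. The labels do not say what the experiment numbers share. The replicate differences of the genotypes had a correlation of 0.0046 over all probe sets and 0.24 over the 38 genes. The main test therefore did not pair the samples by number, while the counts and changes within each experiment paired them for description only. Without 1 array the median log2 change lay between -0.65 and -0.15 for the 38 genes, between -0.78 and -0.17 for regulators, between -0.54 and -0.09 for haem and iron genes, between -0.67 and -0.19 for membrane genes, and between -0.11 and 0.06 for the cytosol group. The counts lower in both experiments (32 to 34) and without overlap (25 to 28, and 28 to 35 without 1 array, where 31.5% to 35.1% of all genes did not overlap) stayed within 1.5 times the values given. The sign of uncalled genes turned without 1 array, where log2 changes ran from -0.41 to 0.0014 for Urod, -0.53 to 0.037 for Cpox, -0.39 to 0.099 for Rhag, -0.31 to 0.074 for Sptb and -0.11 to 0.060 for Car1; the cause was not tested. Quantile normalization, the pseudocount, no filter, no trend and gene means turned none of the 38. With 2 arrays a genotype and 1 scaling per array, a change in total RNA cannot be seen.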
